A study of Mus musculus with 60 samples.

Results

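The genes described here are named for proteins of the mitochondrial ribosome. They were taken from an RNA-seq table of mouse prefrontal cortex by their symbols: Mrpl or Mrps, then a number and at most 1 trailing letter. Of the 18088 genes of the table, 78 met this rule, 49 named for the large subunit (Mrpl) and 29 for the small subunit (Mrps). All 78 are annotated as protein coding, they lie on 17 chromosomes, and 1 pseudogene row (Mrpl23-ps1) was left out. All 78 passed the filter on low values. The names do not follow the finished particle in every case, since the proteins of Mrps30 and Mrps18a sit in the large subunit.

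Mitochondria keep a ribosome of their own, which makes only the few proteins encoded in mitochondrial DNA, all of them hydrophobic subunits of the respiratory chain and ATP synthase. Its rRNAs come from the mitochondrial genome, whereas every one of its proteins is encoded in the nucleus, made in the cytosol and imported, so the particle depends on the joint output of many scattered genes. Some members descend from bacterial ribosomal proteins and others were added in the mitochondrial lineage. Neurons depend heavily on oxidative phosphorylation, and inherited defects of mitoribosomal proteins often affect the brain and heart. Of the 78 members, 48 are of the bacterial type (30 large, 18 small) and 30 are specific to mitochondria (19 large, 11 small).

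The libraries came from C57BL/6J mice examined on postnatal day 25. Each animal had received vehicle, fluoxetine (a selective serotonin reuptake inhibitor) or lithium (a treatment for bipolar disorder) through its mother's milk from postnatal day 3 to 24. Animals were wild type (labelled WT) or heterozygous (labelled HT) for Trip12, which encodes a ubiquitin ligase. The labels do not describe the Trip12 allele. With both sexes this gave 12 groups of 5 libraries, 60 in all, but which libraries come from 1 animal or litter is not labelled. P-values therefore measure only the spread among these samples. The question the design poses is whether genotype, either drug, or their combination moves gene expression in each sex.

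Recovered reads came to 25.1 to 36.6 M per library, with 26.6 to 31 M in vehicle, 32.7 to 36.6 M in fluoxetine and 25.1 to 35.9 M in lithium libraries, so depth moved with treatment. Trip12 itself was not lower in libraries labelled HT: its mean was 5979 ± 188 normalized counts (SD, n = 5) in HT and 5664 ± 413 in WT vehicle females, and the HT mean was the higher in each treatment and sex. HT and WT are therefore used below as the labels' words. Markers of 6 neuronal genes summed to 158800 to 204400 normalized counts across libraries. The 9 striatal markers ran from 5865 to 20320 and 6 olfactory bulb markers from 813 to 15210. Whether the dissected tissue differed between libraries was not tested. No marker on these lists was at 0 in any library. In bulk tissue, fewer cells of a type and less RNA per cell cannot be told apart.

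One library stood apart for the genes described here. In WT fluoxetine males, replicate 2 had a large-subunit sum of 39820 normalized counts, against 31379 to 32199 in the other 4, and 74 of 78 members lay above their own 60-library mean in it. Its length slope (the slope of centred log2 level on log2 exon length, taken over genes that averaged 100 normalized counts or more) was -0.17, the lowest of the 60. HT vehicle male replicate 1 was set beside it for its GC slope of -2.61, the lowest of the 60. Its small-subunit sum of 16950 was low but not the lowest, since HT fluoxetine female replicate 5 had 16916. Several counts of called members are given with and without these libraries, while group means, ranks and counts of signs include both unless stated.

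Promoters are shown first, because the factors that coordinate nuclear genes for mitochondria act there. RefSeq (GRCm38.p6) windows from 250 bases before to 50 bases after the start were held for 69 of the 78 members (43 large, 26 small). An ETS-type motif of the kind bound by NRF2/GABP was searched as CCGGAAG on both strands, in any window of a gene. It was found for 26 of the 69 members (37.7%). The share was 17.0% of the 12763 table genes with a window and 9.93% of all 27025 genes with one. The NRF1-type motif GCATGCGC was in 8 (11.6%, against 5.26% and 3.05%), 7 of them large-subunit genes. The YY1-type motif AAGATGG was in 13 (18.8%, against 7.75% and 7.28%). CCAAT was in 27 (39.1%, against 42.5% and 41.1%), TATAAA in 5 (7.25%, against 9.49% and 15.7%), CACGTG in 5 (7.25%, against 11.0% and 8.09%) and GGGCGG in 34 (49.3%, against 64.4% and 38.2%). A match is a run of letters and not a shown binding site. The 6 stretches below lie in the 250 bases before the RefSeq start, are cut short where an annotated exon reaches into that window, and were chosen to show the motif classes, in 5 cases (all but Mrpl52) in genes that recur in the results. Capitals mark the ETS-, NRF1- and YY1-type and CCAAT motifs in either orientation, and all are written 5′ to 3′ on the gene's strand.
Mrpl9, chr3:94443086-94443317, plus strand: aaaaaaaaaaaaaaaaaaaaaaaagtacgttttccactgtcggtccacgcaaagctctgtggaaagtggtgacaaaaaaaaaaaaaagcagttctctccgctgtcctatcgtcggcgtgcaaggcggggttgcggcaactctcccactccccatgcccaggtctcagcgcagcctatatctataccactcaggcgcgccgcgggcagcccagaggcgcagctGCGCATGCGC
Mrpl10, chr11:97041408-97041559, plus strand: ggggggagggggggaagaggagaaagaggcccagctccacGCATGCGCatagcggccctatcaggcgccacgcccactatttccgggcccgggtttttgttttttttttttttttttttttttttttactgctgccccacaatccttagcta
Mrpl34, chr8:71464676-71464925, plus strand: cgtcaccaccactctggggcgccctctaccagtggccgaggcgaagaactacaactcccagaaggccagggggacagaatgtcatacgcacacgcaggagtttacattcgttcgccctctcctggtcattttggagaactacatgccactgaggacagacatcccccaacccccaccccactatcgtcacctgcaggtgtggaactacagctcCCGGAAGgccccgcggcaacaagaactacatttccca
Mrpl52, chr14:54426659-54426908, plus strand: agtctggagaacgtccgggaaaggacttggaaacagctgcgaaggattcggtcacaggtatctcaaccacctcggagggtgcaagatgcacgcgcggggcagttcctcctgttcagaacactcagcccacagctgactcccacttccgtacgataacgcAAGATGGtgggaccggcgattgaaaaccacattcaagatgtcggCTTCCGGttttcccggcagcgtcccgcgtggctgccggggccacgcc
Mrpl41, chr2:24975099-24975348, minus strand: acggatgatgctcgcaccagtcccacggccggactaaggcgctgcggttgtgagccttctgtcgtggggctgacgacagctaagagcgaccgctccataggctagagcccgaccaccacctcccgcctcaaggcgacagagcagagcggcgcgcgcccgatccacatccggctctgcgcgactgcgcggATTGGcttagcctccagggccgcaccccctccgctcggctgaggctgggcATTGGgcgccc
Mrps14, chr1:160194965-160195214, plus strand: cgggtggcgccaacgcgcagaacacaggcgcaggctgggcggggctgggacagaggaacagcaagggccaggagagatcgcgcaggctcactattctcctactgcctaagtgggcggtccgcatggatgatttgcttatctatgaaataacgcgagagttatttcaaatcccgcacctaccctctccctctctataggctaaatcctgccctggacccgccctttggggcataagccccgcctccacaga
In Mrpl9 the NRF1-type motif was found on both strands with the matches overlapping, 26 and 28 bases upstream of the start, and Mrpl10 had it 134 bases upstream. Mrpl34 had the ETS-type motif 37 bases upstream. Mrpl52 had it in reverse 47 bases upstream, with a YY1-type motif 91 bases upstream. Mrpl41, which is described below for lithium, had CCAAT in reverse 61 and 11 bases upstream. Mrps14, the member most clearly lower after fluoxetine, had none of these 4 motifs in the stretch shown.

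As a class the members were well expressed. The median member had 648 normalized counts (665 for large, 629 for small), where the median of all genes in the table was 409. The highest means were those of Mrpl3 (1534 normalized counts), Mrpl48 (1429), Mrps17 (1416) and Mrps5 (1210), and the lowest those of Mrpl23 (99.6), Mrps28 (152) and Mrpl14 (204). Per kilobase of merged exon length the order was another. Mrps21, a homologue of a bacterial small-subunit protein, led with 933 normalized counts per kb, followed by Mrpl41 (867), Mrpl27 (726), the stalk protein gene Mrpl12 (698) and Mrps12 (670.5), whose protein forms part of the decoding centre. At the low end were Mrpl23 at the tunnel exit (20.4), Mrps35 (48.5), Mrpl33 (56.3), Mrps10 (64.5) and Mrps30 (67). The median was 261 normalized counts per kb for large-subunit and 218 for small-subunit genes, and 238 for bacterial-type against 259 for mitochondria-specific members. Members are short genes: the median merged exon length was 2394 bases, against 3991 over the table, at nearly the same GC content (49.8% against 49.3%).

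The ratio of a member's highest to its lowest group mean had a median of 1.20 and ran from 1.10 (Mrpl37) to 1.63 (Mrps24). For 40 of the 78 members all 12 group means lay within 1.2-fold. Within groups the median residual SD was 0.12 on the log2 scale, against 0.13 for the 12476 tested genes that averaged 100 normalized counts or more. Mrps17 (0.06), Mrpl37 (0.07) and Mrpl48 (0.08) varied least. Mrps24 (0.26), Mrpl54 (0.20) and Mrps34 (0.20) varied most among members with such a mean. Pairs of members were compared by their deviations from group means. Across the 3003 pairs the median Pearson r over 60 libraries was 0.21, or 0.14 without the 2 libraries above. The strongest pairs were Mrps24 with Mrps34 (r = 0.84), Mrps26 with Mrps34 (0.79) and Mrps24 with Mrps26 (0.76), and these were 0.81, 0.70 and 0.71 without the 2 libraries. These pairs share the same libraries and normalization, so the values are descriptions.

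The members of this trio are not alike in role: Mrps24 is a homologue of the bacterial protein at the mRNA entry, while Mrps26 and Mrps34 are mitochondria-specific small-subunit proteins. In HT vehicle males the 5 libraries gave 376, 688, 599, 663 and 855 normalized counts of Mrps34 and 230.2, 342, 354, 437 and 493 of Mrps24. The first of these libraries was the lowest of all 60 for both. WT fluoxetine males gave 697, 967, 714, 646 and 757 for Mrps34 and 504, 661, 467, 423 and 547 for Mrps24, with replicate 2 the highest of all 60 for both. Over 60 libraries the level of Mrps34 tracked the GC slope at r = 0.77, Mrps26 at 0.75 and Mrps24 at 0.59. On deviations from group means, as used for the pairs, these were 0.802, 0.734 and 0.655. Mrps34 shares 63.4% of its exon bases with Mapk8ip3 on the opposite strand and 37.0% with Nme3 on the same strand, and Mrps24 shares 15.4% with Urgcp. None of the 3 was called for either drug against vehicle with the sexes averaged.

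Summed over genes, both subunits were lowest in fluoxetine females of either genotype and, leaving aside the WT fluoxetine males with their divergent library, highest in WT lithium animals. Large-subunit sums averaged 30450 ± 1328 normalized counts (SD, n = 5) in HT and 30300 ± 444 in WT fluoxetine females, against 32480 ± 938 and 32530 ± 1476 in the vehicle females. Lithium females gave 32420 ± 1007 in HT and 33690 ± 323 in WT. The ranges still touched: HT fluoxetine females ran from 29007 to 32154 and HT vehicle females from 31327 to 33799, and WT fluoxetine females from 29840 to 30965 and WT vehicle females from 30434 to 33923. WT fluoxetine and WT lithium females, by contrast, did not overlap, since the lowest of the latter was 33255.

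In males the order was not the same. Vehicle males averaged 31900 ± 583 (HT) and 33170 ± 757 (WT), HT fluoxetine males 31050 ± 444, and lithium males 33080 ± 1606 and 33920 ± 803. WT fluoxetine males averaged 33370 ± 3618, or 31760 ± 339 without replicate 2, so that library alone moved the group from under to over its vehicle group. Small-subunit sums ran alongside, from 17510 ± 572 in HT fluoxetine females to 19530 ± 571 in WT lithium males. WT fluoxetine males had 19610 ± 1825, and 18820 ± 494 without replicate 2. The ratio of large to small sums stayed between 1.70 and 1.76 in all 12 group means, and its highest library was HT vehicle male replicate 1 at 1.85.

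**Figure D1:**
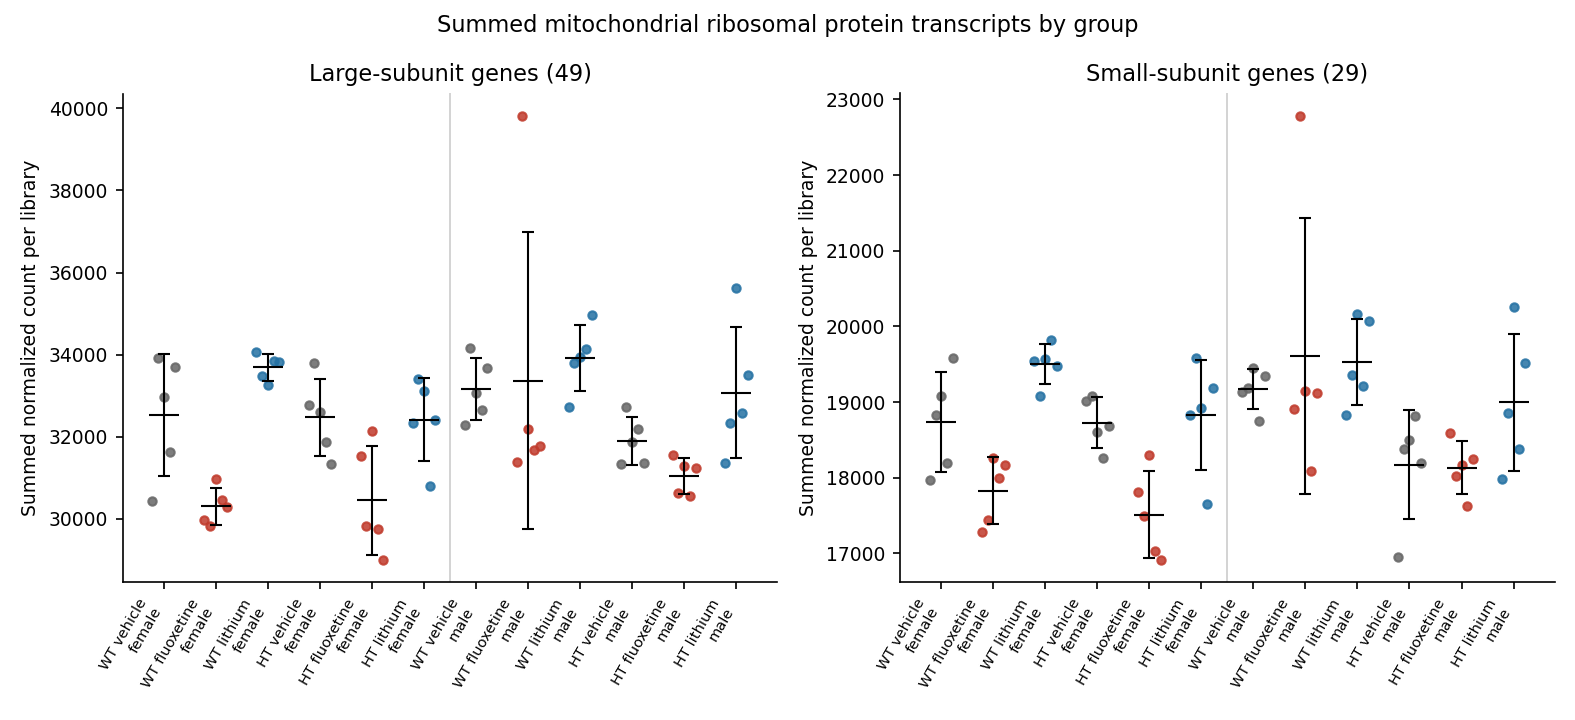
Summed normalized count of the 49 large-subunit genes (left) and 29 small-subunit genes (right) in each of 60 libraries, by group on the x axis. Points are libraries (grey vehicle, red fluoxetine, blue lithium), bars are mean ± SD of 5, the y axes do not start at 0, and WT fluoxetine male replicate 2 stands alone at 39820 and 22784.

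Counted by gene, 24 members had their lowest group mean in HT fluoxetine females and 22 in WT fluoxetine females, and no member had its highest there. WT lithium females held the highest mean of 18 members, WT lithium males and WT fluoxetine males of 14 each, the last with replicate 2 included. These counts have no test of their own, and the comparisons below were fitted gene by gene with limma on log2(normalized count + 1), with p-values adjusted by Benjamini-Hochberg over 17804 genes and a gene called at an adjusted p under 0.05. Fold changes are on that scale, which understates changes of low genes, and each value is a log2 fold change ± SE.

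Fluoxetine lowered 12 members and raised 1 in HT animals, averaged over sexes. Over all genes 5.54% were called lower and 4.7% higher (10.2% in either direction), and 15.4% of members were lower and 1.28% higher. The median member changed by -0.06 and the median of all genes by -0.00, with 60 of 78 members on the negative side. The 12 were 8 of 49 large-subunit genes and 4 of 29 small-subunit genes, and 10 of 48 bacterial-type against 2 of 30 mitochondria-specific members.

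Mrps14, a protein of the small-subunit head (ENSMUSG00000058267, chr1:160195215-160202170, plus strand), was the member with the smallest p. HT vehicle females gave 644, 694, 666, 605 and 680.1 normalized counts and HT fluoxetine females 658, 513, 545, 563 and 504. HT vehicle males gave 666, 672, 611, 649 and 582 and HT fluoxetine males 506, 492, 542, 515 and 560.3. The male groups did not overlap, and in females only replicate 1 of the fluoxetine group reached the vehicle range. The difference was -0.26 ± 0.06, a fall of 16.7%, with 9 of 10 fluoxetine libraries under the vehicle mean of their sex (limma adjusted p = 0.0033). It passed under every alternative tried and without each library, with adjusted p between 0.00095 and 0.049. Its promoter stretch is the one above without a marked motif.

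Mrpl2, a homologue of the bacterial protein next to the peptidyl transferase centre (ENSMUSG00000002767, chr17:46646229-46650139, plus strand), followed. HT vehicle females gave 575, 642, 601, 507 and 514 and HT fluoxetine females 436, 409.8, 470.4, 394 and 465 normalized counts, with no overlap. In males the values were 428, 614, 525, 590.5 and 515 for vehicle and 505, 521, 501, 498 and 483 for fluoxetine. These overlapped, and the lowest vehicle value was that of the divergent replicate 1. Mrpl2 fell by 14.8% (-0.23 ± 0.06, limma adjusted p = 0.011, lower in 10 of 10 libraries).

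Among the other members that were lower, 3 belong to the base of the stalk that recruits translation factors or lie beside it. Mrpl10 fell by 8.99% (-0.14 ± 0.04, adjusted p = 0.012), Mrpl11 by 11.8% (-0.18 ± 0.06, adjusted p = 0.039) and Mrpl53 by 14.9% (-0.23 ± 0.08, adjusted p = 0.037). The stalk protein gene Mrpl12 itself was not called (-0.10 ± 0.05, adjusted p = 0.22). Mrpl20, whose bacterial homologue binds early in assembly of the large subunit, changed by -0.21 ± 0.06, adjusted p = 0.015. The intersubunit-face protein gene Mrpl14 changed by -0.24 ± 0.07, adjusted p = 0.021, Mrpl9 by -0.16 ± 0.05, adjusted p = 0.048 and the mitochondria-specific Mrpl49 by -0.13 ± 0.04, adjusted p = 0.028. On the small subunit Mrps28 changed by -0.28 ± 0.08, adjusted p = 0.015, and the platform protein genes Mrps11 by -0.18 ± 0.05, adjusted p = 0.021 and Mrps18c by -0.24 ± 0.08, adjusted p = 0.033. All 10 fluoxetine libraries were under the vehicle mean of their sex for Mrpl10, Mrpl20, Mrpl14, Mrps11, Mrpl49, Mrpl53 and Mrpl9. Mrps2, which joins the head and body of the small subunit, was the 1 member that was higher (0.12 ± 0.04, adjusted p = 0.049), in 9 of 10 libraries. Its call was lost in 13 of 20 fits that left out 1 library and under 3 of 13 alternatives.

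The count of 13 depended on the covariates and libraries in the fit. It was 1 with length and GC slopes as covariates and 8 with depth as a covariate. Depth did not overlap between vehicle and fluoxetine libraries, so the fit with depth could not separate depth from drug. Calls among all genes moved too, from 1824 to 1465 with the slopes and 778 with depth. The member count was 7 without HT fluoxetine female replicate 4, HT fluoxetine male replicate 2 or HT fluoxetine male replicate 4. It was 8 without HT vehicle male replicate 3 and 18 without HT vehicle male replicate 1. The median member changed by -0.12 with depth as a covariate and by -0.02 with the slopes. Of the tissue markers, P2ry12 among 5 for microglia and Flt1 among 5 for endothelial and mural cells were higher in this comparison. Tac1 among 9 striatal markers was lower. Striatal marker sums ran from 6153 to 20320 normalized counts in HT vehicle males, and from 6546 to 11140 in HT fluoxetine males. Their medians were 17960 and 7403 there, but 6902 in HT vehicle and 9015 in HT fluoxetine females. The part of these markers in the members' values was not tested.

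In WT animals no member was called for fluoxetine by limma (0.208% of all genes were). At an unadjusted p under 0.05 there were 10 of 78 members and 1871 of 17804 genes. DESeq2 and edgeR also called none. Without WT fluoxetine male replicate 2 limma called 4, and without that library and HT vehicle male replicate 1 together 5. Over all genes 671 were called without both, against 37 with them. Here too 60 of 78 members were on the negative side, with a median of -0.05. The smallest p-values were those of Mrps33 (-0.18 ± 0.05, adjusted p = 0.14), Mrps30 (0.17 ± 0.05, adjusted p = 0.2) and Mrps11 (-0.17 ± 0.05, adjusted p = 0.2). Mrps14 had -0.18 ± 0.06, adjusted p = 0.23. No member was shown to respond differently in the 2 genotypes: the genotype by fluoxetine interaction called 0 members and 0.0% of all genes with limma. With edgeR and DESeq2 it called 0 members as well, and in limma 1 member had an unadjusted p under 0.05 (786 of 17804 genes). The 3 with the smallest p were Mrps28 (-0.26 ± 0.11, adjusted p = 1), Mrps30 (-0.13 ± 0.07) and Mrpl2 (-0.15 ± 0.09).

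**Figure D2:**
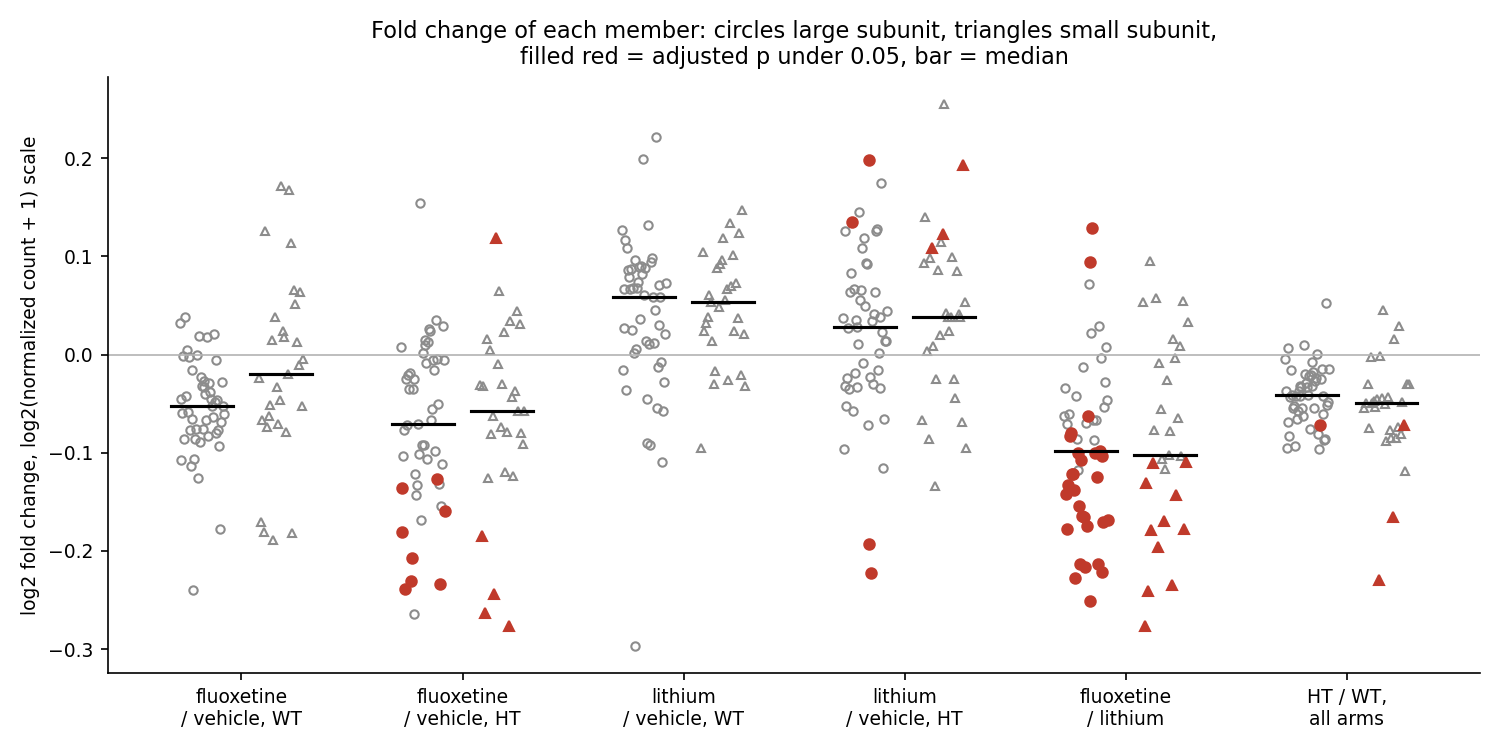
Log2 fold change of each of the 78 members (y axis) in 6 comparisons (x axis), large subunit as circles on the left and small subunit as triangles on the right of each pair. Filled red symbols passed an adjusted p of 0.05 in limma and black bars are medians; fluoxetine against vehicle in HT has 13 filled symbols, in WT 0, and fluoxetine against lithium has 40.

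Split by sex, 8 members were lower in HT fluoxetine females (3.93% of all genes were), with a median of -0.10. None was lower in HT males (0.219% of all genes). There the median was -0.03, and 6 members had an unadjusted p under 0.05 (2009 of 17804 genes). The 8 were Mrpl2 (-0.38 ± 0.09, adjusted p = 0.0055), Mrps16, Mrpl14, Mrpl10, Mrpl20, Mrps18c, Mrps26 and Mrpl27. Of these Mrpl2, Mrpl10, Mrpl14, Mrpl20 and Mrps18c were also called with the sexes averaged, and Mrps14 was called in neither sex alone. Mrps16, a protein of the small-subunit body (ENSMUSG00000049960, chr14:20389304-20393634, minus strand), gave 387, 348, 376, 348 and 372 normalized counts in HT vehicle and 277, 338, 298, 289.8 and 280.1 in HT fluoxetine females. These groups did not overlap (-0.31 ± 0.07, adjusted p = 0.0084). WT females had a median of -0.09 with 67 of 78 members negative and none called. In them 16 members had an unadjusted p under 0.05 (1930 of 17804 genes). In WT males, replicate 2 included, 39 members were positive and 39 negative. The fluoxetine by sex interaction itself called no member in limma, and 16 had an unadjusted p under 0.05 (2090 of 17804 genes). A difference between the sexes was therefore not shown for any single member.

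Averaged over genotypes as well, fluoxetine lowered 15 members and raised none (7.78% of all genes were lower). Mrps14 (-0.22 ± 0.04, adjusted p = 0.00029), Mrps11 (-0.18 ± 0.04, adjusted p = 0.001), Mrps33 (-0.15 ± 0.04, adjusted p = 0.0034) and Mrps18c (-0.22 ± 0.05, adjusted p = 0.0049) had the smallest p. The count was 27 without WT fluoxetine male replicate 2, and 5 with depth as a covariate. With length and GC slopes as covariates it was 10, of which 6 were lower and 4 higher, and 6 were among the 15.

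With lithium, members on the positive side outnumbered those on the negative side. In HT animals 5 members were higher and 2 lower, while 7.44% of all genes were called higher and 7.14% lower (14.6% in either direction). The members' shares, 6.41% and 2.56%, were under that background. The median member changed by 0.04, and 52 of 78 were positive.

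Both members that fell encode mitochondria-specific large-subunit proteins. Mrpl39 (ENSMUSG00000022889, chr16:84717576-84735742, minus strand), which resembles a threonyl-tRNA synthetase domain, gave 622, 629, 561, 610.1 and 557 normalized counts in HT vehicle females and 481, 503, 583, 523 and 569 in HT lithium females. HT males gave 678, 651, 581, 624 and 620.1 with vehicle and 531, 466, 593, 608 and 519 with lithium. The groups overlapped in both sexes, yet 10 of 10 lithium libraries were under the vehicle mean of their sex (-0.19 ± 0.05, limma adjusted p = 0.0068).

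Mrpl41 (ENSMUSG00000036850, chr2:24974117-24975098, minus strand), also known as a Bcl2-interacting protein, gave 925, 965, 839, 703 and 671 in HT vehicle and 626, 686, 687, 629 and 735 in HT lithium females. In males vehicle gave 802, 793, 723, 832 and 753 and lithium 599, 651, 730.5, 793 and 703. Vehicle females were widely spread, and the groups overlapped in both sexes. Mrpl41 fell by 14.3% (-0.22 ± 0.07, limma adjusted p = 0.015, lower in 9 of 10 libraries). Mrpl39 and Mrpl41 passed under every alternative tried and without each library.

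Mrpl4, whose bacterial homologue lines the exit tunnel (ENSMUSG00000003299, chr9:21002738-21008839, plus strand), was higher in HT lithium animals (0.20 ± 0.06, adjusted p = 0.017). HT males gave 836, 996, 988, 1046 and 986 normalized counts with vehicle and 1257, 1189.5, 1404, 1156 and 1184 with lithium, which did not overlap. HT females gave 1062, 945, 1098, 1064 and 1079 and 1148, 1118, 1003, 1094 and 1047, which did. The other 4 that were higher were Mrps17, a primary rRNA-binding protein (0.11 ± 0.03, adjusted p = 0.013), the mitochondria-specific Mrps23 (0.12 ± 0.04, adjusted p = 0.027), Mrpl19 (0.14 ± 0.05, adjusted p = 0.041) and the platform protein gene Mrps6 (0.19 ± 0.07, adjusted p = 0.042). Without HT vehicle male replicate 1, Mrps23 (0.11, adjusted p = 0.057) and Mrps6 (0.16, adjusted p = 0.089) were not called, and the count was 6, with 3 higher and 3 lower. Without HT lithium female replicate 2 the count of 7 was 4. It was also 4 with depth as a covariate, where 1 was higher and 3 lower and the median was 0.00, and 4 with only the compared libraries in the fit. Over all genes 2595 were called in the main fit, 1855 with depth and 1700 with only the compared libraries. Mrpl19 shares 36.0% of its exon bases with Gcfc2 on the other strand.

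Tissue markers moved in this comparison. Of 9 striatal markers 7 were lower in HT lithium than in HT vehicle animals (median -0.60), and HT vehicle male sums of these markers ran from 6153 to 20320 normalized counts, against 7353 to 8863 in HT lithium males. Mag and Mog among 5 oligodendrocyte markers and Syt1 among 6 neuronal markers were lower. Csf1r and Tmem119 among 5 for microglia and Flt1 among 5 for endothelial and mural cells were higher. The endothelial and mural list had a mean centred log2 level of -0.06 in HT vehicle and 0.01 in HT lithium females. In HT males that mean was -0.02 with vehicle and -0.10 with lithium. Their part in the members' values was not tested.

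In WT animals limma called no member for lithium (4.57% of all genes), and DESeq2 and edgeR called none. At an unadjusted p under 0.05 there were 12 of 78 members and 3304 of 17804 genes. The median was 0.06 with 60 of 78 positive. Mrpl34 (0.20 ± 0.07, adjusted p = 0.08), Mrpl47 (0.22 ± 0.08, adjusted p = 0.091) and Mrps23 (0.10 ± 0.04, adjusted p = 0.16) had the smallest p. Mrpl41 had -0.09 ± 0.07, adjusted p = 0.48 and Mrpl39 -0.04 ± 0.05, adjusted p = 0.69 in WT. The genotype by lithium interaction called no member, with 2 at an unadjusted p under 0.05 (996 of 17804 genes).

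By sex, HT lithium males had 6 of 78 members higher, near the share of all genes (6.61%), and Mrpl39 lower (6.58% of all genes). The 6 were Mrpl4, Mrps16, Mrps17, Mrpl28, Mrps11 and Mrpl12, each higher in 5 of 5 libraries. Mrps16 gave 265, 342, 337, 392 and 342 normalized counts with vehicle and 409, 408, 418, 395 and 409 with lithium (0.29 ± 0.07, adjusted p = 0.0069), without overlap. In HT females Mrps30 was the 1 member called (0.28 ± 0.07, adjusted p = 0.037, where 0.696% of all genes were higher), and in WT females Mrpl1 (0.36 ± 0.09, adjusted p = 0.037, 0.309% of all genes). Averaged over genotypes and sexes, 10 of 78 members were called higher with lithium and 2 lower, where 11.4% of all genes were higher and 11.2% lower. The members' share of rises was thus near that of all genes, and their share of falls under it. Mrpl4 (0.16 ± 0.04, adjusted p = 0.0027), Mrps23 (0.11 ± 0.03, adjusted p = 0.0028) and Mrps17 (0.08 ± 0.02, adjusted p = 0.0051) had the smallest p among the rises, and Mrpl39 and Mrpl41 were the falls. With depth as a covariate 2 were higher and 3 lower, and neither Mrpl4 (0.13, adjusted p = 0.1) nor Mrps23 (0.09, adjusted p = 0.089) was called. With length and GC slopes as covariates 10 were higher and 8 lower. The fluoxetine and lithium comparisons share their vehicle libraries, so their values are only set side by side.

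The drugs were also set directly against each other. Over both genotypes and sexes, 38 of 78 members were lower after fluoxetine than after lithium and 2 higher, that is 48.7% and 2.56%, where 16.9% and 16.0% of all genes were. The median member differed by -0.10, and by -0.04 with length and GC slopes as covariates. Both subunits took part, with 27 of 49 large-subunit genes and 11 of 29 small-subunit genes lower, or 27 of 51 and 11 of 27 with Mrps30 and Mrps18a counted with the large subunit. Of the bacterial-type members 29 of 48 were lower and none higher, and of the mitochondria-specific members 9 of 30 were lower and 2 higher. Exon length moved with this: among all genes under 2000 exon bases 20.6% were lower, and 20 of 31 members (64.5%). At 2000 bases or more the shares were 16.1% of all genes and 18 of 47 members (38.3%).

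Mrps11, a platform protein near the mRNA exit (ENSMUSG00000030611, chr7:78783119-78792989, plus strand), had the smallest p. WT females gave 333, 393, 375, 349 and 345 normalized counts with fluoxetine and 496, 521, 462, 423 and 413 with lithium. WT males gave 384, 446, 426, 451 and 359 and 452, 462, 466, 492 and 474. Neither pair overlapped, though in males the closest libraries nearly touched. HT females gave 377, 411, 349.9, 334 and 386 with fluoxetine and 487, 449, 417, 364 and 398 with lithium, which overlapped, and HT males 389.7, 391, 359, 331 and 376 and 479, 534, 508, 464 and 412, which did not. All 20 fluoxetine libraries were under the lithium mean of their genotype and sex (-0.28 ± 0.04, limma adjusted p = 1.9e-07), and the call held under every alternative and without each library. The vehicle libraries lay between, at 428 ± 41.3 and 440.0 ± 39.8 in WT and 435 ± 16.5 and 406 ± 22.1 in HT (SD, n = 5), apart from HT females, where vehicle was above lithium. Mrps11 and Mrpl46, which is transcribed head to head from the other strand, share 173 exon bases, and Mrpl46 differed in the same direction (-0.13 ± 0.04, adjusted p = 0.023).

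**Figure D3:**
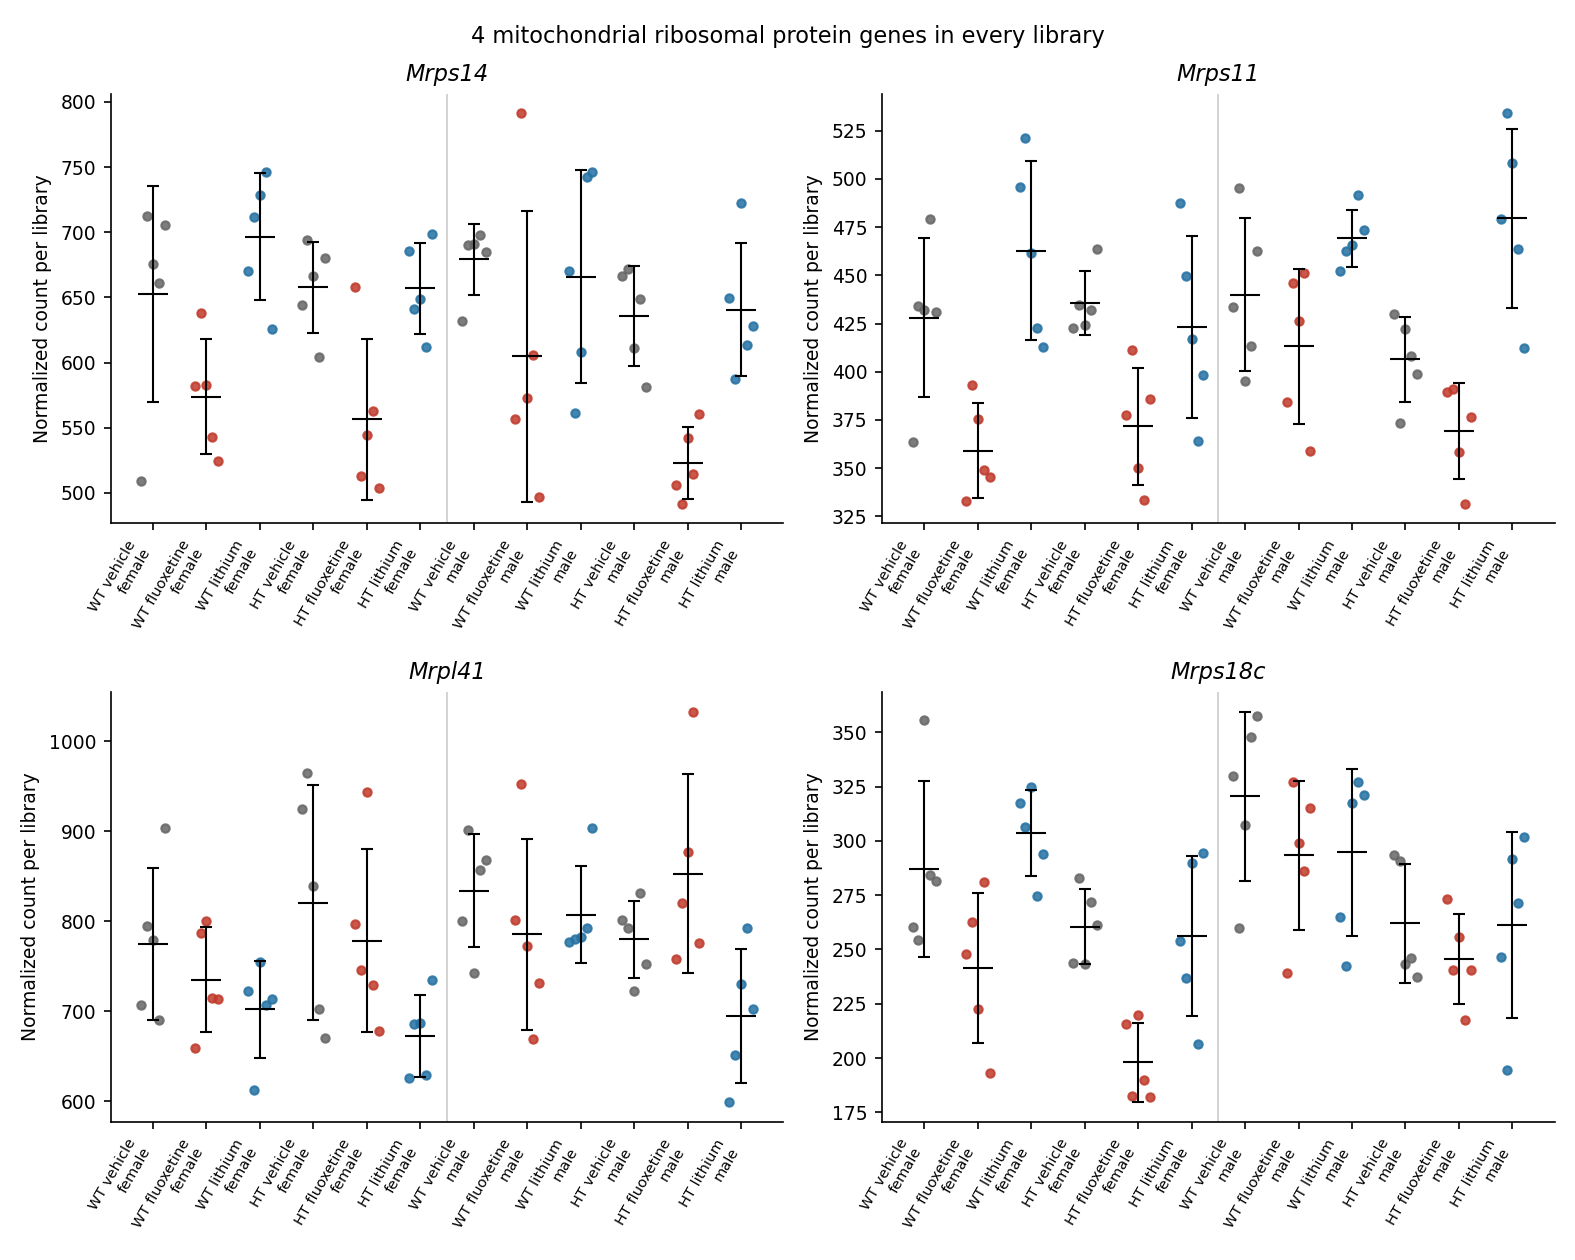
Normalized count per library (y axes, not from 0) of Mrps14, Mrps11, Mrpl41 and Mrps18c in the 12 groups (x axes); points are libraries (grey vehicle, red fluoxetine, blue lithium) and bars mean ± SD of 5. Mrps11 is lower with fluoxetine than with lithium in every genotype and sex by its group mean, and Mrpl41 is lowest in HT lithium females.

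Next came Mrps23 (-0.17 ± 0.03, adjusted p = 4.5e-06), Mrpl4 (-0.25 ± 0.04, adjusted p = 5.8e-06), Mrps14 (-0.24 ± 0.04, adjusted p = 1.6e-05), Mrpl20 (-0.23 ± 0.04, adjusted p = 1.9e-05) and Mrpl28 (-0.21 ± 0.04, adjusted p = 2.8e-05). Mrps17 differed by only -0.11 ± 0.02, with adjusted p = 9.7e-05, and all 20 fluoxetine libraries were on the low side. Of the 3 stalk genes Mrpl12 (-0.18 ± 0.04, adjusted p = 0.00021) and Mrpl11 (-0.14 ± 0.04, adjusted p = 0.0069) were lower and Mrpl10 was not called (-0.03 ± 0.03, adjusted p = 0.32). Around the tunnel exit Mrpl47 (-0.21 ± 0.06, adjusted p = 0.0022), Mrpl24 (-0.10 ± 0.04, adjusted p = 0.027) and Mrpl17 (-0.08 ± 0.03, adjusted p = 0.036) were lower, while Mrpl22 (-0.09 ± 0.05, adjusted p = 0.17), Mrpl23 (-0.12 ± 0.09, adjusted p = 0.35) and Mrpl45 (-0.07 ± 0.03, adjusted p = 0.11) were not called. The members higher after fluoxetine were Mrpl41 (0.13 ± 0.05, adjusted p = 0.026) and Mrpl39 (0.09 ± 0.04, adjusted p = 0.037). In HT alone they had 0.25 ± 0.07 and 0.18 ± 0.05, and in WT alone neither was called. Over both genotypes Mrpl41 lost its call with depth as a covariate and without any 1 of 2 of the 40 libraries. Mrpl39 lost its call with depth or with the slopes as covariates, and without any 1 of 15 of the 40. Both were also lower with lithium than with vehicle in HT animals, a comparison that uses the same HT lithium libraries.

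Within HT, fluoxetine against lithium called 28 members lower and 3 higher (12.6% and 12.2% of all genes), with a median of -0.09. Mrpl4 (-0.30 ± 0.06, adjusted p = 0.00012) and Mrps11 (-0.28 ± 0.05, adjusted p = 0.00012) led, and Mrpl41 was higher in all 10 fluoxetine libraries (0.25 ± 0.07, adjusted p = 0.0035). Within WT 9 were lower and none higher (5.41% of all genes lower), at the same median of -0.09. They were Mrps11 (-0.27 ± 0.05, adjusted p = 0.00087), Mrps33, Mrps17, Mrps23, Mrps14, Mrpl4, Mrpl34, Mrpl20 and Mrpl30. The WT count was 30 without WT fluoxetine male replicate 2 and 4 without WT fluoxetine male replicate 5. Of the tissue markers, 4 of 5 for oligodendrocytes (median 0.37) and 4 of 9 for striatum were higher after fluoxetine than after lithium over both genotypes, and their part was not tested. With length and GC slopes as covariates the counts were 21 over both genotypes (5 higher, 16 lower), 16 in HT and 3 in WT.

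**Figure D4:**
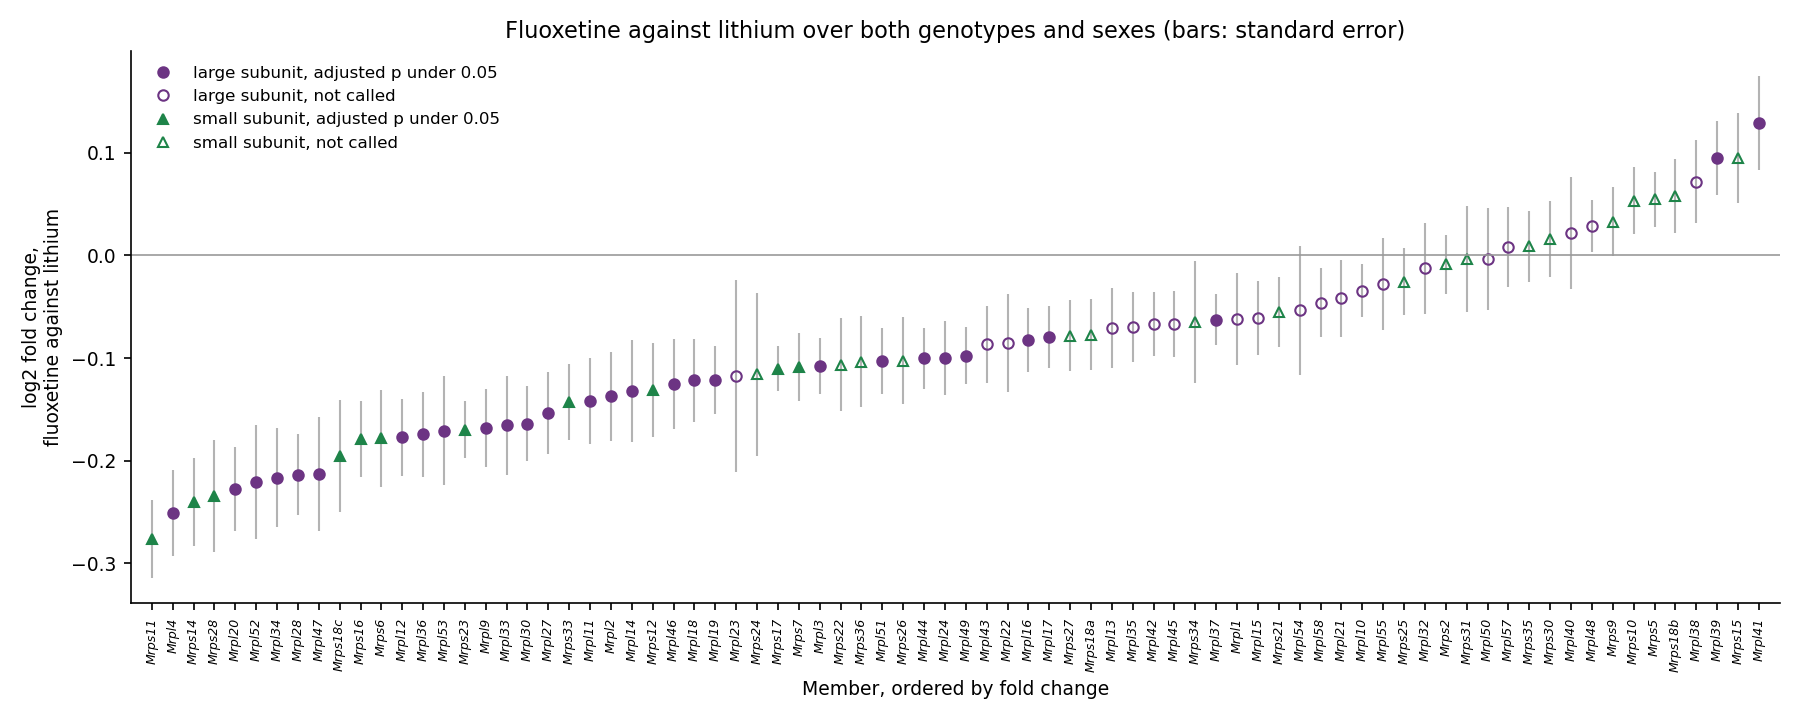
Log2 fold change ± SE (y axis) of fluoxetine against lithium, averaged over both genotypes and sexes, for each of 78 members ordered by that value (x axis); circles are large-subunit and triangles small-subunit genes, filled where limma's adjusted p was under 0.05. The order runs from Mrps11 at -0.28 to Mrpl41 at 0.13, and 65 of 78 members are under 0.

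Genotype by itself moved few members. Within a single treatment, with the sexes averaged, limma called none: 0 with vehicle, 0 with fluoxetine and 0 with lithium, where 0.152%, 0.135% and 0.573% of all genes were called. At an unadjusted p under 0.05 there were 5, 13 and 7 members, and 1575, 2039 and 2356 of 17804 genes. By edgeR none was called, and DESeq2 called 1 with fluoxetine (Mrps28) and none otherwise. In each treatment most members were lower in libraries labelled HT: 59, 66 and 65 of 78. The smallest p with vehicle were those of Mrpl48 (-0.11 ± 0.04, adjusted p = 0.23), Mrps17 (-0.09 ± 0.03, adjusted p = 0.33) and Mrps18c (-0.21 ± 0.08, adjusted p = 0.35). With fluoxetine they were those of Mrps28 (-0.30 ± 0.08, adjusted p = 0.068), Mrps18c (-0.26 ± 0.08, adjusted p = 0.12) and Mrps6 (-0.23 ± 0.07, adjusted p = 0.12), and with lithium those of Mrps5 (-0.12 ± 0.04, adjusted p = 0.13), Mrps18c (-0.22 ± 0.08, adjusted p = 0.19) and Mrps33 (-0.14 ± 0.05, adjusted p = 0.22).

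Averaged over the 3 treatments and both sexes, 4 members were lower in libraries labelled HT and none higher, or 5.13% where 2.53% of all genes were lower. The median was -0.04, with 71 of 78 members negative, and -0.01 with length and GC slopes as covariates. Mrps18c, a platform protein and 1 of 3 members that descend from the same bacterial protein (ENSMUSG00000016833, chr5:100798627-100804471, plus strand), was the clearest.

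For Mrps18c, WT vehicle gave 260.1, 254, 355, 284 and 281 normalized counts in females and 329.9, 259.8, 307, 348 and 358 in males. HT vehicle gave 244, 283, 243, 272 and 261 and 293, 290.5, 243, 246 and 237. The HT means were the lower in both sexes, and the ranges overlapped. With fluoxetine, WT gave 248, 262, 223, 281 and 193 in females and 239, 327, 299, 286 and 315 in males. HT gave 216, 183, 219.9, 189.7 and 182 and 273, 241, 256, 218 and 241. The HT fluoxetine females held the lowest library of the 60, and the ranges overlapped with WT in both sexes. With lithium, WT gave 317, 307, 325, 275 and 294 in females and 265, 242, 318, 327 and 321 in males, and HT 254, 237, 289.8, 206 and 294 and 246, 195, 291, 272 and 302. Again the ranges overlapped with the lower means in HT. Over all arms Mrps18c was 14.7% lower in HT (-0.23 ± 0.04, limma adjusted p = 0.00098), 29 of 30 HT libraries were under the WT mean of their treatment and sex, and the call held under every alternative and without each library.

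Of its paralogues, Mrps18a had -0.05 ± 0.03, adjusted p = 0.27 and Mrps18b -0.05 ± 0.03, adjusted p = 0.4, and neither was called in any comparison made. Mrps18c shares 23.2% of its exon bases with Gm43511, a predicted transcript on the same strand that has its own row in the table. The other 3 called members were Mrps28 (-0.17 ± 0.04, adjusted p = 0.02), Mrpl48 (-0.07 ± 0.02, adjusted p = 0.03) and Mrps5 (-0.07 ± 0.02, adjusted p = 0.038), lower in 24 of 30, 25 of 30 and 24 of 30 HT libraries. With length and GC slopes as covariates 1 member was lower, Mrps18c, and 1 higher. Of the other genes of mitochondrial translation, the assembly factor genes Mettl15 (-0.21 ± 0.04, adjusted p = 0.0026) and Fastkd2 (-0.13 ± 0.03, adjusted p = 0.015) and the mitoribosomal Aurkaip1 (-0.11 ± 0.03, adjusted p = 0.014) were lower in libraries labelled HT.

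Mrps28, a homologue of the bacterial protein that helps load mRNA (ENSMUSG00000040269, chr3:8802146-8923918, minus strand), differed most in a single stratum. WT fluoxetine males gave 158, 203, 159, 178 and 171 normalized counts and HT fluoxetine males 142, 125, 163, 79.5 and 109. The HT values reached down to the lowest library of the 60, and 1 of them lay within the WT range. The difference was -0.52 ± 0.11 (limma adjusted p = 0.033), in a comparison where 0.0618% of all genes were lower. In vehicle males the groups gave 158 ± 15 in WT and 149 ± 14.9 in HT.

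Between the sexes, averaged over all arms, Mrps16 was the 1 member called, higher in males by 0.11 ± 0.03 (limma adjusted p = 0.046), where 0.769% of all genes were higher.

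The level of the whole class moved with the libraries' length slope. Over 60 libraries the mean centred log2 level of the 78 members had a Pearson r of -0.945 and a Spearman rho of -0.931 with the length slope. Without the 2 libraries farthest from its median r was -0.925, and it was -0.918 on deviations from group means. All points share a normalization, members are shorter than most genes, and their own values enter the slope, so r is a description. It was -0.934 for members of 2000 exon bases or more and -0.908 for shorter ones. With the GC slope r was 0.516 and with log2 depth -0.102. Of single members 77 of 78 had a negative r with the length slope and 47 were under -0.5. Mrpl12 (-0.771), Mrps23 (-0.766) and Mrpl27 (-0.738) followed it most closely, and Mrps2 (-0.053), Mrps5 (-0.010) and Mrpl39 (0.038) least. The 2 subunits moved together across libraries (r = 0.914, or 0.872 without the 2 farthest).

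Group means of the slope followed the treatments in females, at 0.036 in HT and 0.038 in WT fluoxetine females, -0.0055 and -0.0052 in the vehicle females, and -0.0002 and -0.027 in lithium females (HT and WT). In males they were 0.021 in HT fluoxetine, 0.015 in HT vehicle and -0.0085 in HT lithium, and in WT 0.0091 with fluoxetine without replicate 2, -0.012 with vehicle and -0.025 with lithium. Fluoxetine in HT lowered 7.47% of all genes under 2000 exon bases and 8 of 31 members of that length (25.8%), and 5.14% of longer genes and 4 of 47 longer members (8.51%). Whether the slope accounts for the members' fluoxetine and lithium differences was not tested.

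**Figure D5:**
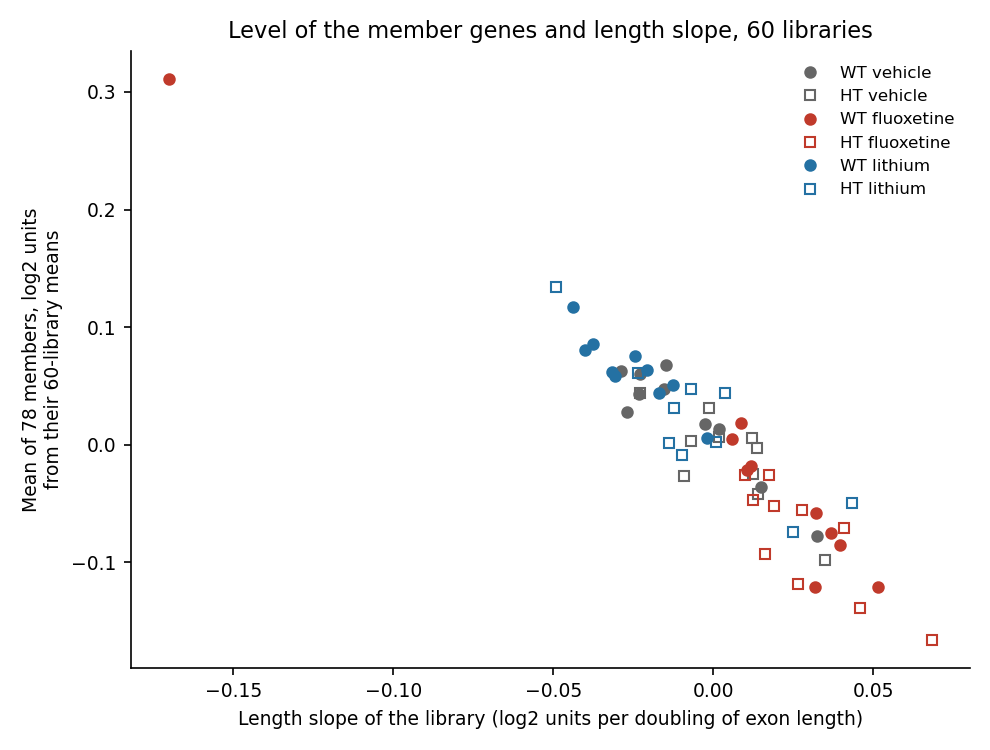
Mean of the 78 members in each of 60 libraries, in log2 units from their 60-library means (y axis), against the library's length slope (x axis). Colours are treatments, filled circles WT and open squares HT; the points fall along 1 descending line (r = -0.945), with WT fluoxetine male replicate 2 at its upper left end.

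Other genes of mitochondrial translation were taken from lists drawn up with the members. Of 24 assembly factors 4 were lower and none higher with fluoxetine in HT, where 5.54% and 4.7% of all genes were: the pseudouridine synthase gene Trub2 (-0.17 ± 0.03, adjusted p = 0.00094), the RNA helicase gene Dhx30 (-0.14 ± 0.03, adjusted p = 0.0018), Ngrn (-0.18 ± 0.05, adjusted p = 0.014) and the rRNA methyltransferase gene Nsun4. In fluoxetine against lithium 13 of the 24 were lower and 1 higher (16.9% and 16.0% of all genes), with a median of -0.11. Of 14 translation factors 1 was lower with fluoxetine in HT, Slirp (-0.23 ± 0.08, adjusted p = 0.044), whose protein stabilises mitochondrial mRNAs, and 5 were lower against lithium. Of 17 mitochondrial tRNA synthetases Pars2 was lower with fluoxetine in HT (-0.22 ± 0.06, adjusted p = 0.017).

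The mitoribosome itself reads the 13 protein-coding transcripts of mitochondrial DNA. Of these 6 were higher with fluoxetine in HT and none lower (4.7% of all genes were higher), with a median of 0.20, led by mt-Nd5 (0.38 ± 0.08, adjusted p = 0.0021) and mt-Nd1 (0.39 ± 0.09, adjusted p = 0.004), both encoding subunits of respiratory complex I. The 12S and 16S rRNA genes mt-Rnr1 (0.25 ± 0.09, adjusted p = 0.063) and mt-Rnr2 (0.21 ± 0.08, adjusted p = 0.081) were not called. Their polyadenylated share is what a poly-A library holds. In WT no gene of these lists was called for fluoxetine.

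With lithium in HT, 3 of 9 genes for transcription and replication of mitochondrial DNA were higher and none lower (7.44% and 7.14% of all genes). They were Polrmt (0.26 ± 0.07, adjusted p = 0.0078), Polg (0.14 ± 0.04, adjusted p = 0.01) and Tfam (0.18 ± 0.05, adjusted p = 0.013). Of the 24 assembly factors Mterf3 (0.30 ± 0.08, adjusted p = 0.0049), Mettl17 and Ybey were higher and Tfb1m lower (-0.32 ± 0.09, adjusted p = 0.011). Of the 17 synthetases Hars2 was higher and Pars2 (-0.31 ± 0.06, adjusted p = 0.0005) and Rars2 lower. Among 8 regulators of mitochondrial biogenesis, Esrra, a nuclear receptor, was lower with fluoxetine (-0.18 ± 0.06, adjusted p = 0.024) and higher with lithium (0.23 ± 0.06, adjusted p = 0.0024) in HT, and Nrf1, the factor that binds the NRF1-type motif shown above, was lower with fluoxetine (-0.17 ± 0.05, adjusted p = 0.02). Gabpa, a subunit of NRF2/GABP, was not called with either drug (0.12 ± 0.08, adjusted p = 0.33 with fluoxetine and 0.04 ± 0.08, adjusted p = 0.79 with lithium). Of 5 mitoribosomal proteins with other names, Gadd45gip1 was higher with lithium in HT (0.20 ± 0.07, adjusted p = 0.029), and Aurkaip1 was lower with fluoxetine than with lithium over both genotypes (-0.15 ± 0.03, adjusted p = 0.00042).

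Mrps36 and Mrpl58 are known for duties other than that of a structural ribosomal protein. Mrps36, whose protein is a subunit of the 2-oxoglutarate dehydrogenase complex, had -0.06 ± 0.06, adjusted p = 0.62 with fluoxetine and 0.04 ± 0.06, adjusted p = 0.74 with lithium in HT. Mrpl58, which encodes a peptidyl-tRNA hydrolase that rescues stalled ribosomes, had -0.01 ± 0.05, adjusted p = 0.96 and 0.01 ± 0.05, adjusted p = 0.89. Neither was called in any comparison made. Mrps12 at the decoding centre had -0.03 ± 0.06, adjusted p = 0.81 and 0.14 ± 0.06, adjusted p = 0.14, and was lower with fluoxetine than with lithium (-0.13 ± 0.05, adjusted p = 0.022).

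Exons of 33 members overlap those of another annotated gene, 24 of them a gene of the table, so reads of both may not have been separable. The same holds for Mrpl23 and its pseudogene Mrpl23-ps1, whose row was left out. They are Mrpl3, Mrpl9, Mrpl10, Mrpl12, Mrpl13, Mrpl14, Mrpl18, Mrpl19, Mrpl21, Mrpl24, Mrpl27, Mrpl33, Mrpl36, Mrpl43, Mrpl44, Mrpl46, Mrpl47, Mrpl48, Mrpl49, Mrpl51, Mrpl53 and Mrpl58 of the large and Mrps6, Mrps7, Mrps11, Mrps18b, Mrps18c, Mrps24, Mrps25, Mrps26, Mrps27, Mrps30 and Mrps34 of the small subunit. The overlap is largest for Mrpl53 (88.0% of its exon bases, with a predicted gene on the same strand), Mrps25 (69.8%, Nr2c2) and Mrps34.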

How the data were processed

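RNA was measured in 60 prefrontal cortex libraries, prepared per the labels' protocols with the TruSeq Stranded mRNA kit. The authors deposited 1 table of normalized counts (a depth-scaled signal per Ensembl gene); the submitters' processing notes name Salmon 0.11.2, R 3.6.0, DESeq2 1.19.11 and GRCm38, while the annotation, strand setting and any filter are not given in the sources used here. Each library's deposited values were whole multiples of 1 step (100% within 0.01), so whole reads were recovered, with size factors from 0.85 to 1.25. Of 18088 gene IDs, 18077 matched the GRCm38 annotation, which gave symbols, positions, merged exon length and GC content.

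A gene was tested if 5 or more libraries reached 10 normalized counts (17804 genes, with 284 removed). limma 3.58.1 (R 4.3.3, trend on) fitted 12 group means to log2(normalized count + 1) over all 60 libraries (48 residual degrees of freedom), as the normalized unit needs, with Benjamini-Hochberg adjustment over 17804 genes. edgeR 4.0.16 and DESeq2 1.42.0 on recovered reads, other pseudocounts, filters and scalings, depth or length and GC slopes as covariates, the replicate number as a block, and leaving out libraries were alternatives. The fits were tested on simulated data.

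The members and lists were chosen with earlier results of these data known. Members named are up to 10 called per direction in each planned comparison (3 with the smallest p where fewer than 5 were called), the 5 highest and lowest per kb, the 3 most and least variable, Mrps18a, Mrps18b, Mrps18c, Mrps30, Mrpl12, Mrps12, Mrps36 and Mrpl58, and members overlapping other genes. From each pathway list up to 3 called genes are named. Members and genes named for the comparisons of fluoxetine with lithium, of treatments averaged over genotypes and of genotype over all arms, for single sexes and for pairs of members, and those named for their place in the ribosome, were chosen after their values were seen. The alternatives on the first 3 of these kinds of comparison were also added after the data were seen. Results for the cortical layer markers are not reported here.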

Additional observations from a re-analysis of the deposited data

Results flagged for a closer look

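In 7 of 144 groups of 5 libraries, over 12 quantities, 1 library lay far enough from the other 4 to pass Dixon's test, and chance flags about 1 in 20 groups (5.0%). WT fluoxetine male replicate 2 stood out in the large-subunit sum at 39820 normalized counts (the others 31380 to 32200) and in the small-subunit sum at 22780 (18090 to 19140). The others were single genes. Mrps14 was 509.1 in WT vehicle female replicate 1 (others 660.9 to 712.2) and 631.7 in WT vehicle male replicate 1 (685.0 to 698.1). Mrps17 was 1564 in that same male library (1464 to 1474). Mrpl2 was 512.9 in WT lithium female replicate 2 (567.1 to 578.5), and Mrps2 was 825.1 in WT fluoxetine male replicate 5 (753.7 to 772.7). In 4 interactions of a drug with genotype or sex no member was called by limma.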

How the results depend on the processing

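No called fold change of a named member changed sign. Of 78 called values of single members, 33 kept their call under every alternative and without each library, and of 18 uncalled ones 4 were called under at least 1 alternative. edgeR and DESeq2 each called 13 members for fluoxetine in HT, 7 for lithium in HT and 41 for fluoxetine against lithium, and DESeq2 called 1 for HT against WT with fluoxetine. With depth as a covariate the counts were 8 for fluoxetine in HT, 4 for lithium in HT, and 5 each for fluoxetine and lithium over both genotypes, and for lithium most calls were then lower (3 of 4 in HT and 3 of 5 over both). With length and GC slopes they were 1 for fluoxetine in HT, 1 for lithium in WT, 16 (HT), 3 (WT) and 21 (both) for fluoxetine against lithium, and 2 for genotype over all arms. They were 10 (4 higher, 6 lower) for fluoxetine and 18 (10 higher, 8 lower) for lithium over both genotypes. Quantile scaling gave 7 for fluoxetine in HT. Fitting only the libraries compared gave 4 for lithium in HT, 1 for lithium in WT and 4 for fluoxetine against lithium in WT. Leaving out replicate 1 of HT vehicle males together with replicate 2 of WT fluoxetine males, the counts were 5 for fluoxetine in WT, 31 for fluoxetine over both genotypes, 1 for lithium in WT and 31 for fluoxetine against lithium in WT. Calls among all genes moved as well. They went from 1824 to 778 with depth for fluoxetine in HT, where depth and drug could not be separated. For fluoxetine in WT they went from 37 to 671 without both libraries. The cause was not tested.

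Leaving out 1 library at a time gave 7 to 18 for fluoxetine in HT, 0 to 4 in WT and 11 to 27 over both. Lithium gave 4 to 9 in HT, 0 in WT and 10 to 14 over both. Fluoxetine against lithium gave 24 to 33 in HT, 4 to 30 in WT and 36 to 49 over both. HT against WT gave 0 with vehicle, 0 to 1 with fluoxetine, 0 with lithium and 3 to 6 over all arms, and the genotype by fluoxetine interaction 0. With the replicate number as a block the counts were 12 for fluoxetine and 9 for lithium in HT, 16 and 12 over both genotypes, 32 (HT), 10 (WT) and 41 (both) for fluoxetine against lithium, 5 for genotype over all arms and 0 otherwise. Deviations of libraries sharing a number had r from -0.50 to 0.57, with medians from -0.07 to 0.07 over the planned comparisons. Libraries of unlike number were not compared in this way, so whether the number pairs libraries was not settled. With length and GC slopes the genotype folds of Mrps28 (-0.15, adjusted p = 0.051), Mrpl48 (-0.05, adjusted p = 0.15) and Mrps5 (-0.06, adjusted p = 0.087) were no longer called, and Mrps5 also lost its call without any 1 of 14 libraries.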
